A study of Mus musculus with 2 samples.

Results

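The Mir30 family comprised 6 microRNA (miRNA) genes, Mir30e, Mir30c-1, Mir30a, Mir30c-2, Mir30d and Mir30b, and was examined in mouse facial tissue. The members were taken by name from the annotation, and each of the 6 was found by its Ensembl identifier among the 1973 annotated miRNA genes of the count tables. Short RNA of facial prominence, the embryonic tissue from which the jaws, nose and palate form, was sequenced from strain B6NCrl mouse embryos aged 13.5 days. Males and females were pooled, RNA under 30 bases was taken, and the labels call the animals healthy. The study had 2 libraries, labelled as biological replicates 1 and 2, which form a single group, so it gives levels and their spread but no contrast between conditions. In bulk tissue, fewer cells of a type and less RNA per cell cannot be told apart.

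A miRNA gene is transcribed into a hairpin, which is cut into a 5′ arm and a 3′ arm of about mature length. The arm that is loaded into an Argonaute protein recognises messenger RNAs mainly through its seed, bases 2 to 8. The Mir30 family is defined by a common 5′ seed. It is known from mouse bone cell cultures as a brake on osteoblast differentiation that targets the transcription factor Runx2 and the BMP signal carrier Smad1, and from several epithelia as a repressor of Snai1, a driver of the change from epithelial to mesenchymal form. Mir30a is also the backbone on which many designed short hairpin RNAs are built.

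The sequences below show the seeds and how closely the members resemble each other, which decides whether a read can be placed at 1 gene. Sequences came from RefSeq on GRCm38.p6, whose table held 4 of the 6 members (Mir30e, Mir30a, Mir30c-1 and Mir30c-2). Capitals mark the seed, and each sequence runs 5′ to 3′. The 5′ arms, with that of Mir384, the only gene of that table outside the family with the same seed, are these:
mmu-miR-30e-5p: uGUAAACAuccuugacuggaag
mmu-miR-30a-5p: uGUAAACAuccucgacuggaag
mmu-miR-30c-5p: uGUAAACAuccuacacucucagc
mmu-miR-384-5p: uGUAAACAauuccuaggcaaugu

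The 3′ arms fell into 2 seed groups, that of Mir30e and Mir30a and that of the Mir30c genes:
mmu-miR-30e-3p: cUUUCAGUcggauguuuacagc
mmu-miR-30a-3p: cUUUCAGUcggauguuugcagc
mmu-miR-30c-1-3p: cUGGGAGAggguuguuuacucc
mmu-miR-30c-2-3p: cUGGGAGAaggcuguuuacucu

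Positions are counted from 1 at the 5′ end of the mature sequence, with the base of the first-named miRNA first. The 5′ arms of Mir30a and Mir30e were the same at 21 of 22 bases and differed by C13U, and their 3′ arms differed by G18A alone. Neither difference lies in a seed. The 3′ arms of Mir30c-1 and Mir30c-2 differed at 3 of 22 bases (G9A, U12C and C22U), so a read of this arm can tell these copies apart. The 5′ arm of Mir30c, of 23 bases, was identical in both copies. Outside the family, mmu-miR-6958-5p of Mir6958 shared the 3′ seed of the Mir30c genes.

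Both Mir30c hairpins are shown because the stretch they share, in capitals, takes in the whole 5′ arm. It spans 28 bases, from base 17 to base 44 of Mir30c-1 and from base 14 to base 41 of Mir30c-2:
Mir30c-1: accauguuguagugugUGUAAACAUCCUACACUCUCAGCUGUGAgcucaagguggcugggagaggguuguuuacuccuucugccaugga
Mir30c-2: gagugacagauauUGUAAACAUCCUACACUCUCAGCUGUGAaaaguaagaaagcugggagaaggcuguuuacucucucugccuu

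Of the 68 windows of 22 bases in the Mir30c-1 hairpin, 7 also occurred in Mir30c-2, and of the 63 windows in Mir30c-2 the same number occurred in Mir30c-1. None of the 71 windows of Mir30e or the 50 windows of Mir30a occurred in any other of the 1005 hairpins in the table. The longest stretch shared by Mir30e and Mir30a was 18 bases, from base 58 to base 75 of Mir30e, which begins 1 base before the 3′ arm. The deposited gene counts hold uniquely placed reads, and reads with several places form a class with no gene. A read of the Mir30c 5′ arm that lies within the shared stretch has at least 2 places, so the counts of both Mir30c genes leave such reads out. The gene counts do not separate the arms.

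**Figure D1:**
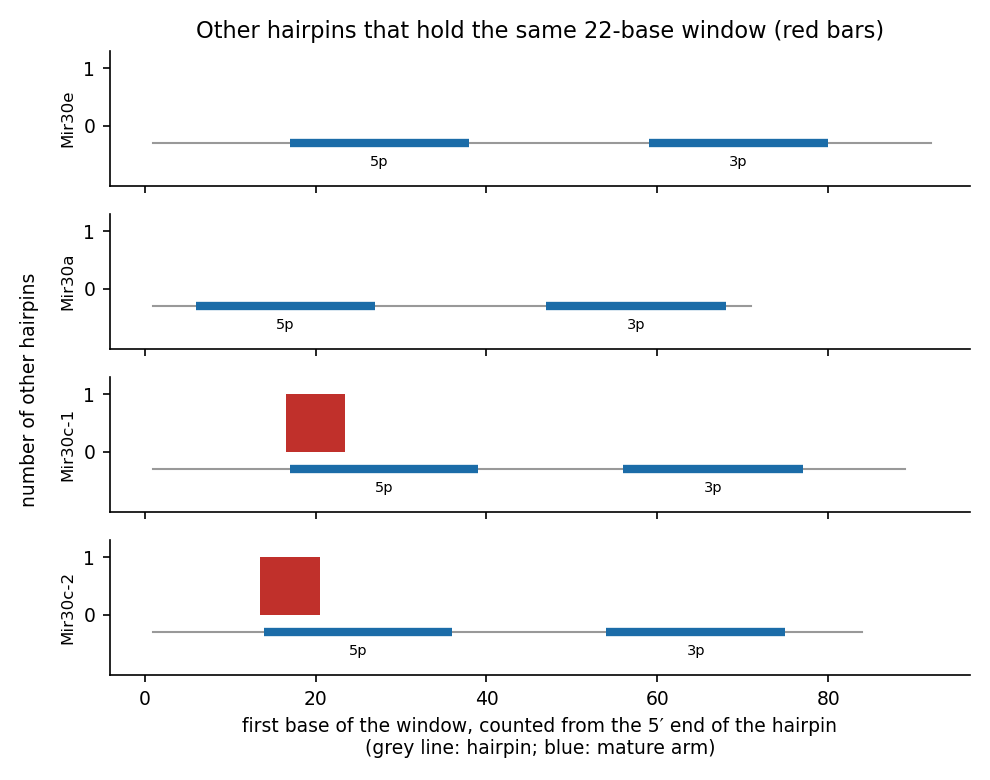
Number of other RefSeq mouse hairpins that hold the same 22-base window (y axis), by the first base of the window counted from the 5′ end of the hairpin (x axis), for the 4 members with a listed hairpin. Red bars are shared windows, the grey line is the hairpin and blue segments are the mature arms. Shared windows stand only at the 5′ arm of Mir30c-1 and Mir30c-2, 7 in each.

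The 6 genes lie in pairs at 3 loci (GRCm38 coordinates, GENCODE release M21). Mir30e (ENSMUSG00000065409.1, chromosome 4 from 120772606 to 120772697) and Mir30c-1 (ENSMUSG00000065490.1, 120769534 to 120769622) sit on the minus strand in introns of Nfyc, which encodes a subunit of the transcription factor NF-Y, 2983 bases apart. Mir30a (ENSMUSG00000065405.2, chromosome 1 from 23272269 to 23272339) and Mir30c-2 (ENSMUSG00000065567.1, 23291701 to 23291784) sit on the plus strand, 19361 bases apart. Mir30c-2 lies in an exon of the long noncoding RNA Gm27028, while no other annotated gene overlaps Mir30a. Mir30d (ENSMUSG00000065437.1, chromosome 15 from 68341208 to 68341289) and Mir30b (ENSMUSG00000065476.2, 68337415 to 68337510) sit on the minus strand, 3697 bases apart. Mir30d lies in an exon of the long noncoding RNA Gm20732, and 16 of the 96 bases of Mir30b overlap an exon of Gm26621. Release M21 also lists Mir30f opposite Mir30e. It has no line of its own in the count tables, and opposite-strand counts were 0 at Mir30e, as at the other members, in both libraries.

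Gene totals on the strand of the gene were 4562135 counts in replicate 1 and 5771249 in replicate 2, or 44.1% of the reads of each file. Levels are CPM, the counts of a gene per 1000000 of this total, and a count of 0 would allow up to 3 counts, or 0.658 CPM in replicate 1 and 0.520 CPM in replicate 2. Intervals are 95% Wilson intervals and, like these floors, cover counting error only, because without molecular identifiers PCR copies of 1 molecule are counted as separate reads. The miRNAs that mark facial tissue were present, with 18603 CPM in replicate 1 and 22710 CPM in replicate 2 for the cartilage gene Mir140. The 7 listed epithelial genes, which include the Mir200 genes, had summed levels of 63539 and 63309 CPM. This even sum holds opposite shifts. Mir200a, Mir200b, Mir200c, Mir141 and Mir429 were higher in replicate 2, as with Mir429 at 13418 and 18412 CPM. Mir203 and Mir205 were higher in replicate 1, as with Mir205 at 15716 and 14330 CPM. The 5 listed neuronal genes found in the tables summed to 8.77 and 5.55 CPM, with 3 of them at 0 in both libraries; they belong to the Mir124a and Mir9 groups, whose mature sequences are known to be encoded at several loci, so these values set no limit on neural tissue. The endothelial gene Mir126a had 25810 and 23871 CPM in replicates 1 and 2, and the 5 listed mesenchymal genes summed to 45313 and 46413 CPM. This sum also holds opposite shifts. Mir214 was higher in replicate 1, at 26825 and 24589 CPM. Mir143, Mir199b, Mir199a-1 and Mir199a-2 were higher in replicate 2, as with Mir143 at 16319 and 19231 CPM. Markers of liver, red blood cells and striated muscle were low, and their sums were less even between the libraries. The liver gene Mir122 had 49.5 CPM in replicate 1, against 109 CPM in replicate 2, and the red blood cell genes Mir451a and Mir144 summed to 91.0 and 151 CPM. The 6 striated muscle genes found in the tables summed to 622 CPM in replicate 1 and 385 CPM in replicate 2. Most of this was Mir206, at 570 and 314 CPM. Of the 6, 3 were at 0 in both libraries, among them Mir1a-1 and Mir133a-2, both numbered as copies. Reads placed at several copies would be left out, so this sum sets no limit on muscle tissue.

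The family held 2.45% of all gene counts in replicate 1 (interval 2.44 to 2.46) and 2.71% in replicate 2 (2.70 to 2.72), a mean of 2.58 ± 0.184% (SD, n = 2). Among uniquely placed reads the Nfyc locus dominated, almost wholly through Mir30e. This locus held 63.9 ± 1.03% of the family's counts, against 20.1 ± 0.302% for the Mir30a and Mir30c-2 locus and 16.0 ± 0.727% for the Mir30d and Mir30b locus. The 3 loci kept this order in both libraries and their ranges did not overlap. In these counts each locus was carried by 1 of its genes: Mir30e, Mir30a or Mir30d. Mir30b and the Mir30c genes together held 0.630% of the family's counts in replicate 1 and 0.752% in replicate 2. Reads within the shared Mir30c 5′ arm are left out, so these shares do not show how the whole family is divided.

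**Figure D2:**
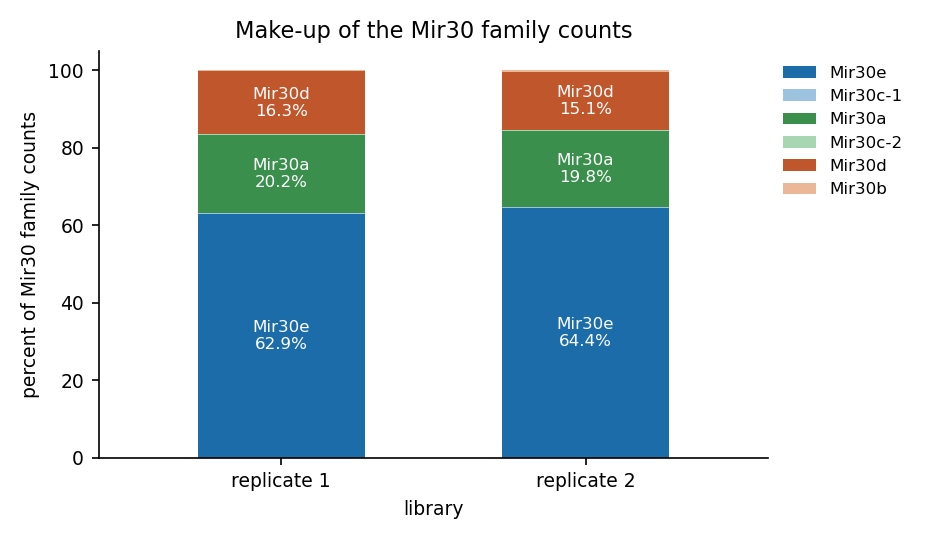
Share of the Mir30 family counts (percent, y axis) held by each gene in each library (x axis), stacked by locus. Mir30e holds 62.9% and 64.4%, Mir30a 20.2% and 19.8% and Mir30d 16.3% and 15.1% in replicates 1 and 2, while the other 3 genes are thin bands.

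Mir30e, whose 5′ arm is 1 base away from that of Mir30a, was the leading member, at 70276 counts or 15404 CPM in replicate 1 (interval 15292 to 15518) and 100638 counts or 17438 CPM in replicate 2 (17331 to 17545). It held 62.9% of the family's counts in replicate 1 and 64.4% in replicate 2, and stood at place 19 of all miRNA genes in each library. Tested genes are the 360 that had at least 10 counts in each library, of which 17 had a higher mean level than its 16421 ± 1438 CPM (SD, n = 2). The median over the 360 genes was 113 CPM.

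Mir30a had 22565 counts or 4946 CPM in replicate 1 (4882 to 5011) and 30937 counts or 5361 CPM in replicate 2 (5301 to 5420). It took 20.2% and 19.8% of the family. The count tables list version 2 of this gene, while release M21 holds version 3, so the counted interval may differ in extent from the coordinates above. Mir30d had 18169 counts or 3983 CPM in replicate 1 (3925 to 4041) and 23559 counts or 4082 CPM in replicate 2 (4030 to 4134), which was 16.3% and 15.1% of the family. Both genes lay high in the tissue as a whole, with 40 tested genes above Mir30a and 46 above Mir30d. Mir30d, known in human melanoma as a promoter of invasion, varied little between the libraries, with a mean of 4032 ± 70.4 CPM, against 5153 ± 293 CPM for Mir30a.

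Mir30b, the partner of Mir30d, stood far lower, at 323 counts or 70.8 CPM in replicate 1 (63.5 to 79.0) and 708 counts or 123 CPM in replicate 2 (114 to 132). It held 0.289% of the family's counts in replicate 1 and 0.453% in replicate 2. Its mean of 96.7 ± 36.7 CPM had the widest relative spread of the 6 genes, a coefficient of variation of 37.9%, against 1.07 to 15.7% for the other 5.

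The Mir30c genes had the lowest counts of the family. Mir30c-1 had 299 counts or 65.5 CPM in replicate 1 (58.5 to 73.4) and 384 counts or 66.5 CPM in replicate 2 (60.2 to 73.5). Mir30c-2 had 82 counts or 17.97 CPM in replicate 1 (14.5 to 22.3) and 83 counts or 14.4 CPM in replicate 2 (11.6 to 17.8). Together they took 0.341% of the family's counts in replicate 1 and 0.299% in replicate 2. Mir30c-1 exceeded Mir30c-2 by 3.65-fold in replicate 1 and 4.63-fold in replicate 2. Since reads within the shared 5′ arm are left out of both, these values are the levels of the uniquely placed part only and put no upper limit on miR-30c, which in mouse liver is known to repress Mttp, a gene of lipoprotein assembly.

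In order of mean level the genes ran Mir30e, Mir30a, Mir30d, Mir30b, Mir30c-1 and Mir30c-2, in both libraries, and the ranges of no neighbouring pair overlapped. The order was also the same per base of hairpin, from 178 CPM per base for Mir30e to 0.193 CPM per base for Mir30c-2. Mir30a exceeded Mir30d by only 1.24-fold in replicate 1 and 1.31-fold in replicate 2, and Mir30e exceeded Mir30a by 3.11-fold and 3.25-fold. The step from Mir30d to Mir30b was the widest, at 56.3-fold and 33.3-fold. Mir30b and Mir30c-1 were close in replicate 1, where their intervals overlapped, and differed by 1.84-fold in replicate 2. No test between members was run.

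**Figure D3:**
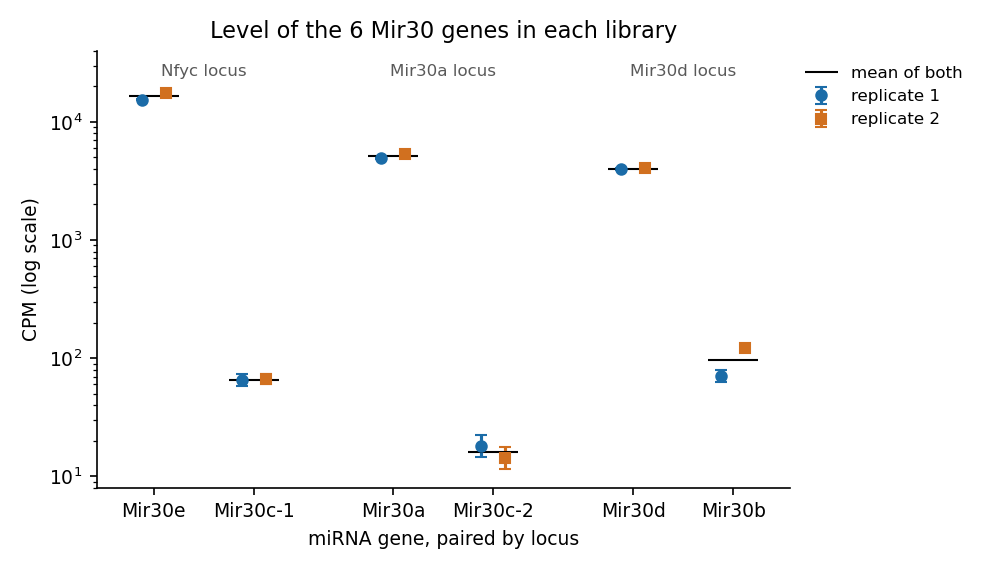
Level of each Mir30 gene in CPM (log scale, y axis), with the genes paired by locus (x axis). Points are the libraries with their 95% Wilson intervals and black lines are means; Mir30e, Mir30a and Mir30d lie between 3983 and 17438 CPM and Mir30b and the Mir30c genes between 14.4 and 123 CPM.

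Within each locus the counts were split very unequally. Mir30e exceeded Mir30c-1 by 235-fold in replicate 1 and 262-fold in replicate 2. Mir30a exceeded Mir30c-2 by 275-fold and 373-fold, and Mir30d exceeded Mir30b by 56.3-fold and 33.3-fold. Across the genome, 110 pairs of tested miRNA genes followed each other on 1 strand with a gap of at most 20 kb. Untested miRNA genes were left out first and can lie between the genes of a pair. This also leaves out very unequal pairs, such as Mir199b with Gm23363, at means of 2092.5 and 1.77 CPM. Gm23363 was untested, with 13 counts in replicate 1 and 4 in replicate 2. Places in the ranking therefore hold among pairs of tested genes only. The limit of 20 kb was chosen so that the Mir30a and Mir30c-2 pair was included. By the ratio of mean CPM, Mir30a over Mir30c-2 held place 4 and Mir30e over Mir30c-1 place 5 of these pairs, and Mir30d over Mir30b held place 28. The median ratio over all 110 pairs was 8.65, and 13 pairs exceeded 100. Mir30c-1 and Mir30c-2 share a mature sequence, and the part that uncounted reads of it have in these ratios was not tested. For Mir30d and Mir30b the mature sequences were not analysed here.

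**Figure D4:**
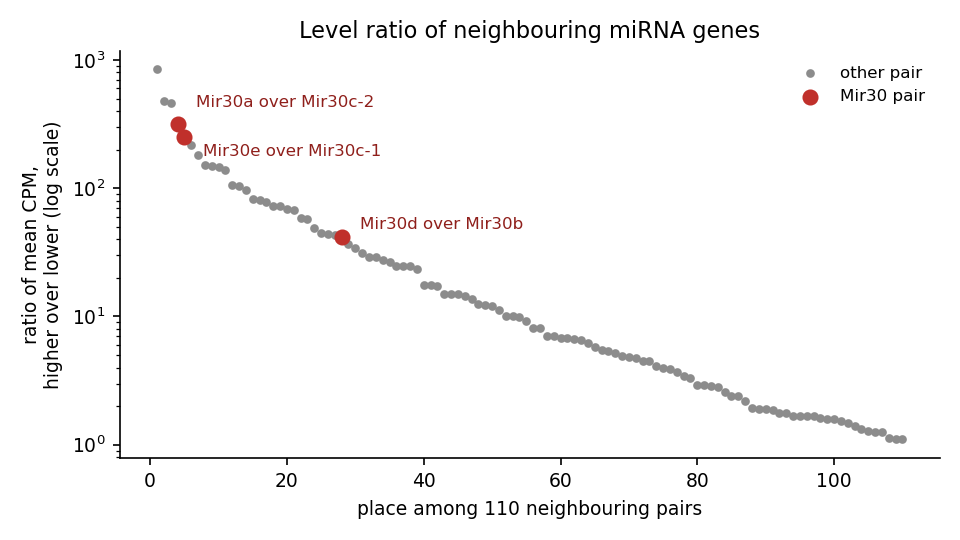
Ratio of mean CPM, higher over lower gene (log scale, y axis), for 110 pairs of tested miRNA genes in order of that ratio (x axis). The genes of a pair are neighbours once untested genes are left out, so pairs with an untested gene have no place. Red points are the Mir30 pairs, at places 4, 5 and 28, and grey points are the other pairs.

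The replicates were close for most members. In a two-sided exact binomial test of each gene's counts between the libraries, with TMM-scaled library sizes and Benjamini-Hochberg adjustment over 360 genes, 4 of the 6 Mir30 genes differed, beside a background of 55.0% of all tested genes. That background ran from 36.6% with a minimum of 1 count to 68.7% with a minimum of 100, where 4 of 5 tested members differed. This test sets the 2 libraries against counting error only and compares no conditions. All 4 were higher in replicate 2, and the 2 Mir30c genes did not pass. The liver and red blood cell markers were also higher in replicate 2. The cartilage gene Mir140 was higher there as well (log2 ratio of replicate 1 to replicate 2 of -0.287). So were the Mir200 genes, Mir141 and Mir429 of the epithelial list, while Mir203 and Mir205 were lower. Of the mesenchymal list, Mir143 and the Mir199 genes were higher in replicate 2 and Mir214 was lower. The endothelial gene Mir126a was lower in replicate 2 (log2 ratio 0.113). The muscle sum was lower in replicate 2 through Mir206 (log2 ratio of replicate 1 to replicate 2 of 0.862). Mir208b was higher there (-0.636), and Mir133b did not pass. The part of these markers in the differences of the Mir30 genes was not tested. Mir30b differed most, with a ratio of replicate 1 to replicate 2 of 0.577 (adjusted p = 2.23e-16, exact binomial test), and 32 of the 360 genes had a larger absolute log2 ratio. The ratio was 0.884 for Mir30e (adjusted p = 3.26e-139), 0.923 for Mir30a (adjusted p = 2.66e-19) and 0.976 for Mir30d (adjusted p = 0.0272), all by the same exact test.

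For Mir30c-1 the ratio of replicate 1 to replicate 2 was 0.985 (adjusted p = 0.940, exact binomial test) and for Mir30c-2 it was 1.25 (adjusted p = 0.228), where the low counts limit what could be seen. The median absolute log2 ratio was 0.15 over the 6 Mir30 genes and 0.24 over the 360 tested genes. With a minimum of 100 counts it was 0.13 over 5 members and 0.18 over 259 genes. These medians were not matched by level. Over all tested genes, edgeR's common dispersion gave a replicate coefficient of variation of 17.99% on top of counting error, which Mir30b alone of the 6 genes exceeded.

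**Figure D5:**
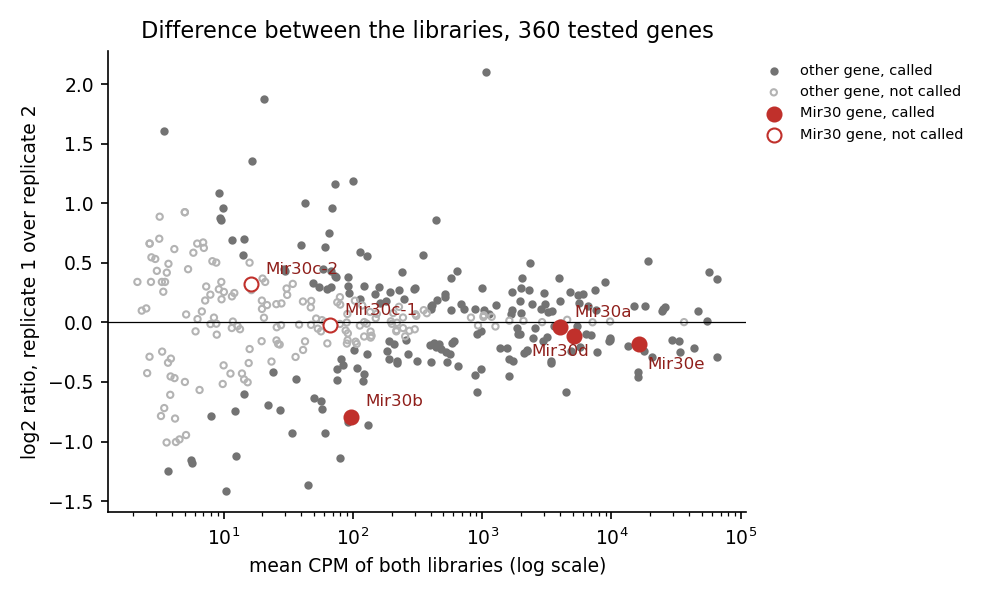
Log2 ratio of replicate 1 to replicate 2 (y axis) against mean CPM (log scale, x axis) for 360 tested genes. Filled points passed the exact binomial test after adjustment and open points did not; of the red Mir30 genes, Mir30b lies lowest, at -0.79, while Mir30e, Mir30a, Mir30d and Mir30c-1 lie between -0.18 and -0.02 and Mir30c-2 at 0.32.

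Outside the family, Mir384, which shares the 5′ seed, had 58 counts or 12.7 CPM in replicate 1 and 104 counts or 18.02 CPM in replicate 2. Its mean of 15.4 ± 3.75 CPM was close to that of Mir30c-2, at 16.2 ± 2.54 CPM, and the ranges overlapped. Mir6958, whose 5′ arm has the 3′ seed of the Mir30c genes, had 2 counts in replicate 1 and 5 in replicate 2.

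In the order of all miRNA genes, set by mean CPM over the 2 libraries, the gene just above and the gene just below each member were taken as its neighbours in level. Mir30e stood between Mir143 and Mir93, at mean log2 differences of 0.11 and 0.04. Mir30a stood between Mir423 and Mir181d, and Mir30d between Mir351 and Mir342. Lower down, Mir30b stood between Mir615 and Mir3102, Mir30c-1 between Mir505 and Mir493, and Mir30c-2 between Mir8114 and Mir326. The ranges of all 12 neighbours overlapped those of their members, which follows largely from choosing them by mean level in the same libraries.

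Other families with members copied at several loci gave different pictures. The Mir30 family, at 2.58 ± 0.184% of gene counts, stood beside the Mir26 family at 2.96 ± 0.210%, the Mir181 family at 1.85 ± 0.186% and the Mir29 family at 0.0127 ± 0.00199% (SD, n = 2 each). Among uniquely placed reads, Mir30e held 62.9% and 64.4% of the Mir30 counts, while Mir26b held 99.8% of the Mir26 counts in each library. Mir26a-1 and Mir26a-2 share a mature sequence, and reads with several places are not counted. These shares therefore do not show how the whole of each family is divided among its genes. Like the Mir30c genes at 66.0 ± 0.705 and 16.2 ± 2.54 CPM, the copied genes Mir26a-2 and Mir26a-1 were low, at 42.7 ± 3.34 and 10.5 ± 6.75 CPM. Other genes that share a mature sequence had widely different levels. Mir181a-1 had 3983 ± 71.0 CPM, against 140 ± 7.69 CPM for Mir181a-2, and Mir181b-2 had 1721 ± 276 CPM, against 27.2 ± 2.48 CPM for Mir181b-1. Mir29b-1 and Mir29b-2 had 2.11 ± 0.198 and 0.260 ± 0.368 CPM. The part that the shared sequence has in these levels was not tested. These values are set side by side without a test.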

How the data were processed

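Per the deposited description files, the authors made gene quantifications on mm10 with GENCODE release M4; which aligner, counter and trimming were used is not given in the sources used here. The deposited values are whole-number counts per miRNA gene in 3 columns without a header, read from their layout as unstranded, same-strand and opposite-strand counts, after 4 lines of read classes (unmapped, several places, no gene, ambiguous), which stayed out of totals and tests. The same-strand column was used. In gene lines, same-strand and opposite-strand counts always added up to the unstranded count (0 exceptions).

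Names and positions came from GENCODE M21 by identifier (1894 of 1973 matched, 79 did not), and sequences from RefSeq (GRCm38.p6). The places of mature sequences were looked up among the table's hairpins, since no genome was used. Genes with at least 10 counts in both libraries were tested across all genes by an exact binomial test with TMM scaling (edgeR 4.0.16, R 4.3.3). The test was tried on simulated counts that held counting error only. That trial does not show its behaviour with the wider spread between these libraries. Intervals came from scipy 1.17.1. The named genes were the members, genes with their seeds, 3 comparison families as needed and the neighbours of each member in level. Members, lists and tests were chosen with earlier results of these data known.

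Alternatives were the unstranded column, other denominators of CPM, TMM or DESeq2 1.42.0 size factors or total counts, count minimums of 1 and 100, pooled counts, other window lengths, 1 mismatch, and leaving out each library.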

Additional observations from a re-analysis of the deposited data

Results flagged for a closer look

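Reads placed at several loci, which belong to no gene in the files, came to 3179149 in replicate 1 and 4058237 in replicate 2. They exceed the 3 counts that a count of 0 allows and were 28.5 and 26.0 times the counts of the whole Mir30 family; how many are of the shared Mir30c 5′ arm cannot be read from these files. Opposite-strand counts over all miRNA genes were 126885 in replicate 1 and 158904 in replicate 2, also above that limit, with 0 of them at the 6 Mir30 genes.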

How the results depend on the processing

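The limit for an alternative value was 1 SD from the value reported, or 1.5-fold for counts of genes and windows. Counts of hairpins that hold a mature sequence had to be unchanged. Of 119 alternative values for 33 results, 103 stayed within these limits and 16 moved. For shares of the family and ratios within loci this says nothing about stability, because with 2 libraries, and 0 opposite-strand counts at the members, each alternative had to stay within 1 SD. Levels with a library left out also had to stay within 1 SD. TMM scaling, with factors of 0.9998 and 1, could hardly move them. With all reads of the file as the denominator, the family held 1.14%, Mir30e fell to 7239, Mir30a to 2272, Mir30d to 1778, Mir30b to 42.7, Mir30c-1 to 29.1 and Mir30c-2 to 7.13 counts per 1000000 reads, as that larger denominator sets. Without the most abundant gene in the total, Mir30a stood at 5513, Mir30d at 4315 and Mir30c-1 at 70.7 CPM, and with the unstranded column Mir30d stood at 3924 and Mir30c-1 at 64.3 CPM. With 1 mismatch allowed, each arm of Mir30a and Mir30e was found in 2 hairpins in place of 1.

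The number of Mir30 genes that differed between the libraries was 4 under every scaling, count minimum and column tried. Over all genes it ranged from 178 of 259 (68.7%, at a minimum of 100 counts, where 5 members were tested) to 209 of 369 (56.6%, unstranded column), with 202 of 552 (36.6%) at a minimum of 1 count. Leaving out a library gave the values of the other: 2.71 and 2.45% for the family without replicates 1 and 2, 123 and 70.8 CPM for Mir30b, and 33.3 and 56.3 for the ratio of Mir30d to Mir30b. The binomial test has no value with 1 library. No paired analysis was possible because the libraries form 1 group. Depth limits the precision of the Mir30c-2 level, which rests on 82 and 83 counts.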
